A study of Mus musculus with 6 samples.

Results

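The epithelial keratins Krt7, Krt8, Krt18, Krt19 and Krt20 were taken by name, as the 5 listed genes among the 31319 genes counted in single nuclei of mouse intestinal organoids, and their Ensembl identifiers were matched to mouse symbols. The organoids came from jejunum of C57BL/6 mice aged 8 to 12 weeks, and no transgene or deletion is named for them. They were grown in quiescent conditioned medium (QCM, taken from serum-deprived mouse embryonic fibroblasts) or in senescent conditioned medium (SCM, taken from fibroblasts made senescent by X-rays or doxorubicin in the study, where the labels do not say which was used here), each mixed with organoid growth medium. The comparison asks whether the secreted factors of senescent fibroblasts change the organoid cells. There were 3 samples per medium, and 38154 nuclei stood in 15 deposited clusters numbered 0 to 14. How long the organoids for nuclei stood in the media is not given, and although the study in general counts mice as replicates, the labels do not say that these samples came from separate mice, so p-values measure the spread between these samples, which may be technical.

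Keratins are the intermediate filament proteins of epithelial cells. A filament is built from pairs of 1 type I and 1 type II chain, so that neither type forms filaments alone. KRT8, the type II chain, and KRT18, its usual type I partner, are the first pair made in simple epithelia, KRT19 is a type I chain without a tail domain, KRT20 is the type I chain of differentiated intestinal cells, and KRT7 is a type II chain of ducts and of many glandular epithelia that is low in normal intestine.

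The annotation (GENCODE M21, GRCm38) places the type II genes and Krt18 on chromosome 15 and the other type I genes on chromosome 11. Krt7 (ENSMUSG00000023039) spans 101411043 to 101430313 on the plus strand of chromosome 15, Krt8 (ENSMUSG00000049382) 101996698 to 102004482 on the minus strand, and Krt18 (ENSMUSG00000023043) 102028180 to 102032027 on the plus strand. The starts of Krt8 and Krt18 lie 23698 bases apart and point away from each other. Krt20 (ENSMUSG00000035775) spans 99428403 to 99438150 and Krt19 (ENSMUSG00000020911) 100140810 to 100148665, both on the minus strand of chromosome 11. Of other annotated transcripts, 2 matched a member over at least 300 bases at 90% identity or more, the processed pseudogenes Krt8-ps and Gm5200 (like Krt18). They held 58 and 6 UMIs over all samples, 0.0471% of the UMIs of Krt8 and 0.0133% of those of Krt18. A UMI is a molecular tag that counts 1 captured RNA molecule.

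The 250 bases before the RefSeq start (GRCm38.p6) are shown for the 4 members with an entry, Krt7 at chr15:101412153-101412402 (plus strand), Krt8 at chr15:102004343-102004592 (minus), Krt18 at chr15:102027966-102028215 (plus) and Krt20 at chr11:99438154-99438403 (minus), because Krt7, Krt8 and Krt18 shared 1 pattern across clusters and Krt20 had another. The RefSeq start lies inside the GENCODE gene by 1360 bases for Krt7, 140 for Krt8 and 36 for Krt18, so that these windows hold annotated gene sequence, that of Krt7 in full, whereas for Krt20 it lies just before the gene. The sequences run 5′ to 3′, with capitals for letters that match a motif searched on both strands: the TATA box TATAAA, the GC box GGGCGG, AP-1 TGANTCA, the TEAD core GGAATG and the CDX core TTTATG.
Krt7: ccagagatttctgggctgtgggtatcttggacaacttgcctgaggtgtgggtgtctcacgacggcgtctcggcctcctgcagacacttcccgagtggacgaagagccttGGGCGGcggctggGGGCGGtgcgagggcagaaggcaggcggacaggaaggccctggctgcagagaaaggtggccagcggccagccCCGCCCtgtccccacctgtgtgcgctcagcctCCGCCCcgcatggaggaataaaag
Krt8: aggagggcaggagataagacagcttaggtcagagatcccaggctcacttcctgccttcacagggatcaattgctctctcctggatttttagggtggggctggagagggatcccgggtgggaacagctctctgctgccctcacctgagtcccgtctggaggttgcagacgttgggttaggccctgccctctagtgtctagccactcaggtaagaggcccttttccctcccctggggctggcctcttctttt
Krt18: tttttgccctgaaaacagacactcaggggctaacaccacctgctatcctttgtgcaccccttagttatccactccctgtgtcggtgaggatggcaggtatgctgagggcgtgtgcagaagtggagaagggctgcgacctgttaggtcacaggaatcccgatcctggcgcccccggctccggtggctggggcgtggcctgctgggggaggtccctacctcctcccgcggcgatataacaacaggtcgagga
Krt20: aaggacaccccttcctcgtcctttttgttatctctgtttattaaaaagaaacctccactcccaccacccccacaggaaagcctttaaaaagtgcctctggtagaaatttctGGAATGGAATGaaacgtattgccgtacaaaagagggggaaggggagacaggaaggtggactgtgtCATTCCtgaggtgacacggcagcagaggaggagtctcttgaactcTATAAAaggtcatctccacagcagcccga
Krt7 had 4 GC boxes and no TATA box. Krt20 had a TATA box 29 to 24 bases before its start and 3 TEAD cores, of which a pair overlap by 1 base. None of the 5 motifs was in the window of Krt8 or Krt18. Of 32851 RefSeq promoters in the same window, 32.7% held the GC box, 12.4% the TATA box, 12.6% the TEAD core, 10.8% the CDX core and 6.75% the AP-1 letters. These are matches of letters and do not show binding.

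The libraries were uneven. They held 430 to 10833 nuclei and 4071926 to 41035733 UMIs, with a median of 1578 to 8260 UMIs per nucleus, and SCM replicate 1 was the smallest. Of its 430 cell barcodes, 175 (40.7%) were also in QCM replicate 1, whereas the other 14 pairs of libraries shared 0 to 36. The levels by cluster, the differences over all nuclei and the ratio of Krt7 to Krt8 were therefore also computed without those nuclei. The fits within clusters and of gene lists were run without SCM replicate 1 as a whole, and the shares of nuclei with a UMI were not recomputed. Ribosomal protein genes took 4.96 to 14.2% of UMIs in QCM and 2.64 to 7.30% in SCM. The epithelial markers Epcam, Cdh1, Vil1, Cdx1, Cdx2 and Cldn7 were present in every sample, with a summed level of 1949 to 2818 CPM (UMIs of the genes scaled to the same total of UMIs in every sample or cluster, summed over the nuclei named), against 2.46 to 8.63 for 8 mesenchymal, 0 to 2.36 for 3 immune and 2.39 to 4.97 for 3 endothelial markers.

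Krt7, Krt8, Krt18 and Krt19 were highest in the same cluster, and Krt20 in another. In cluster 7, the mean over 6 samples was 230 ± 119 (SD) CPM for Krt7, 1741 ± 671 for Krt8, 780 ± 201 for Krt18 and 1386 ± 500 for Krt19. Cluster 7 was also first of all clusters for 9 fetal or regeneration markers, with a summed level of 1412 ± 904 CPM against 363 ± 156 in cluster 1, the next. Of these, the chaperone gene Clu stood at 478 ± 539 CPM, Anxa2 at 395 ± 113, Anxa3 at 211 ± 98.6 and Anxa1 at 131 ± 93.5, whereas Gja1 was near 0 (0.597 CPM). Krt20 was highest in cluster 8 with 114 ± 86.0 CPM (n = 6), which was first for 9 enterocyte markers (5278 ± 2153 CPM summed, with Sis at 1748 ± 508). Cluster 9 was next with 61.5 ± 19.7 CPM of Krt20 (n = 5). It was the second cluster for enteroendocrine markers. The clusters were drawn by the authors from these nuclei, so levels by cluster describe them and were not tested.

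**Figure D1:**
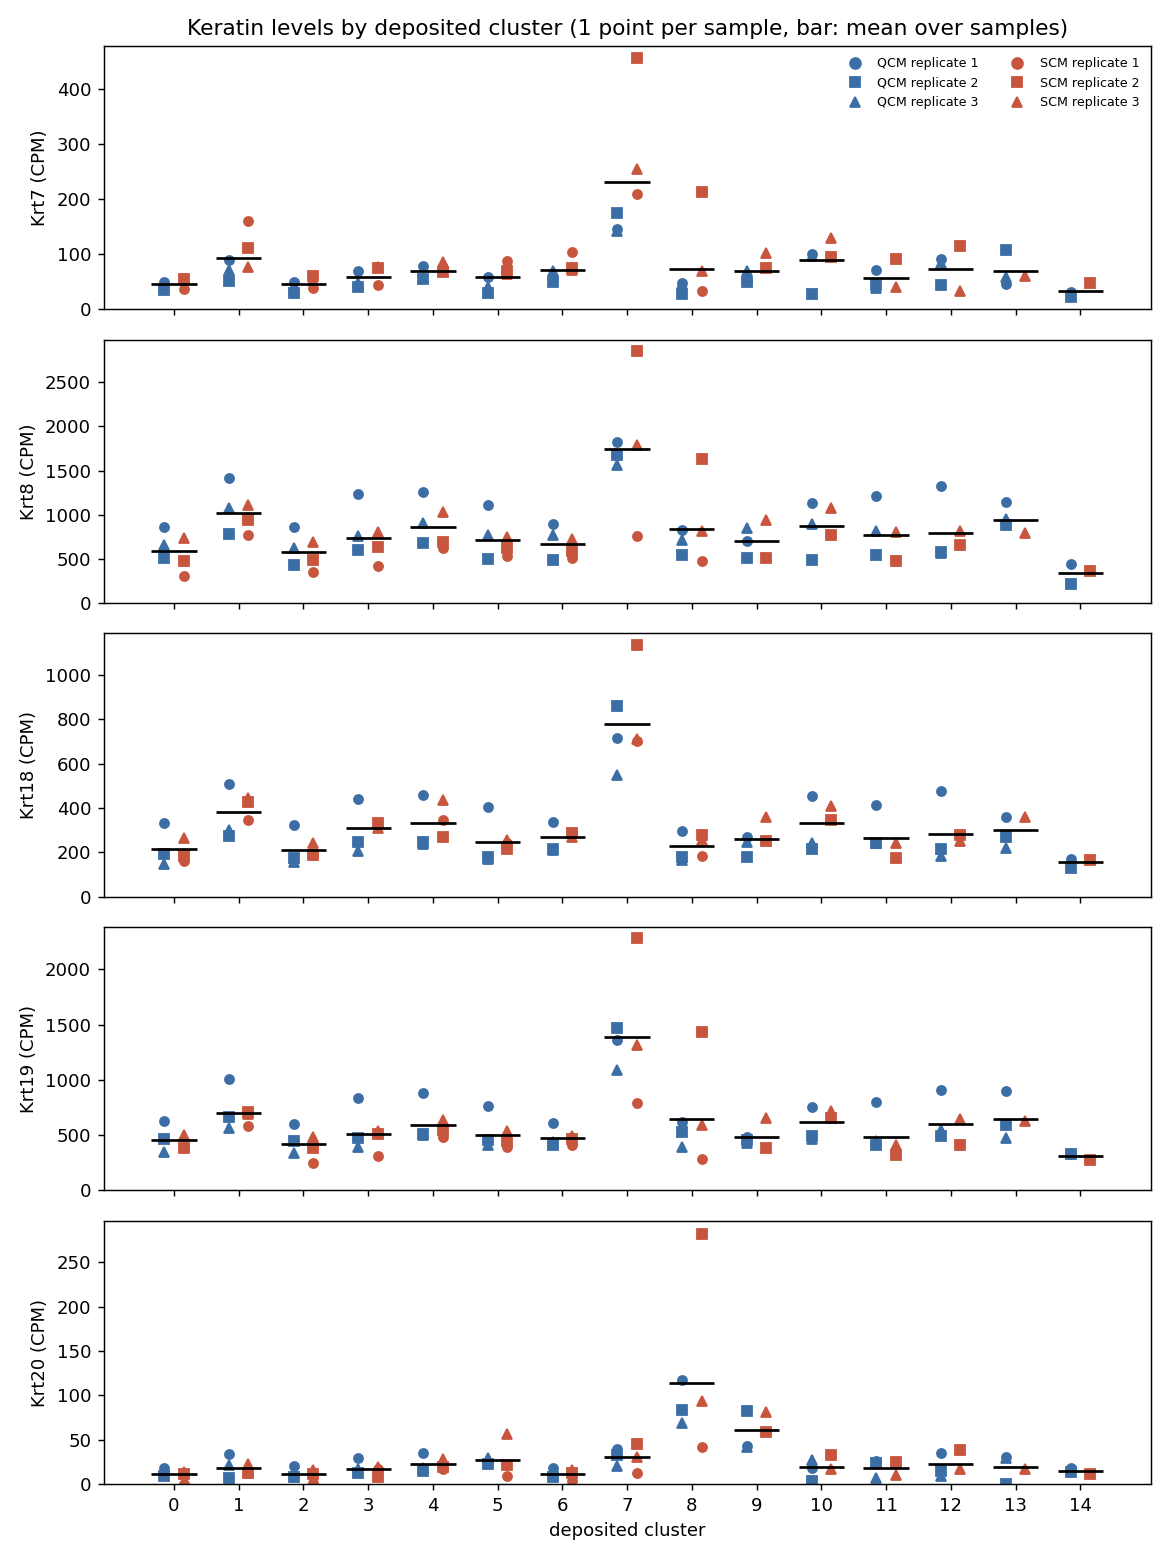
Level of each keratin (CPM, linear axis from 0) in the deposited clusters 0 to 14. Each point is 1 sample with at least 10 nuclei in the cluster, blue for QCM and red for SCM, and the bar is the mean over samples. Krt7, Krt8, Krt18 and Krt19 stand highest in cluster 7, and Krt20 in clusters 8 and 9.

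The order held in nearly every sample. Cluster 7 was the first cluster in 6 of 6 samples for Krt7, Krt18 and Krt19, and in 5 of 6 for Krt8. Krt7 in cluster 7 was 144.9, 175 and 142.0 CPM in QCM replicates 1 to 3 and 208, 456 and 254 CPM in SCM replicates 1 to 3. Every SCM value of Krt7 there lay above every QCM value, as it did for 10.2% of the genes tested in that cluster. In the cluster 7 nuclei with over 16000 UMIs, Krt7 overlapped between the media. It was 279, 556 and 230 CPM there in QCM replicates 1 to 3 and 210, 495 and 476 CPM in SCM replicates 1 to 3. Of the 2824 Krt7 UMIs of SCM replicate 2, 1376 lay in 63 such nuclei. Krt8 in cluster 7 was 1820, 1672 and 1560 CPM in QCM and 755, 2851 and 1789 CPM in SCM. SCM replicate 1, with 17 nuclei in this cluster, was the lowest of the 6 and SCM replicate 2 the highest. Against the median of the other clusters of the same sample, cluster 7 was higher by a median of 3.59-fold for Krt7 (range 2.50 to 6.08), 2.65-fold for Krt18 (1.86 to 4.19), 2.35-fold for Krt19 (1.80 to 5.10) and 2.11-fold for Krt8 (1.52 to 4.62). The same ratio of Krt20 in cluster 8 had a median of 4.76 and reached 14.4 in SCM replicate 2, at 282 CPM, where the other samples stood at 41.4 to 117 CPM.

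Below the first cluster the order was shallow. Cluster 1 was second for all 4 keratins (93.1 ± 38.5 CPM of Krt7, 1015 ± 244 of Krt8, 383 ± 91.2 of Krt18 and 703 ± 160 of Krt19), and the gap from cluster 7 to cluster 1 was larger than the larger SD of the pair for each. Further down, the only neighbours that differed by more than that SD were clusters 2 and 14 for Krt8 (575 ± 190 against 339 ± 117 CPM). Cluster 14, 92 nuclei with a median of 39432.5 UMIs, was last for Krt7 (33.3 ± 12.7 CPM, n = 3), Krt8, Krt18 and Krt19. This mean leaves out SCM replicate 1, whose 7 nuclei of cluster 14 went the other way. They held 54.0% of its Krt7 UMIs and 51.3% of its Krt8 UMIs in 32.2% of its UMIs. For Krt20, clusters 8 and 9 differed by less than the SD of cluster 8, although cluster 8 was higher in 5 of 5 samples. Cluster 9 exceeded cluster 7 (30.6 ± 12.0 CPM) by more than the SD. Krt20 was lowest in cluster 0, at 11.3 ± 6.47 CPM.

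Across the 15 clusters, with means over samples on the log2(CPM + 1) scale, Pearson's r between Krt7, Krt8, Krt18 and Krt19 was 0.93 to 0.97, and r of each with Krt20 was 0.13 to 0.34. Without cluster 7, the lowest r among the former was 0.83, between Krt18 and Krt19. Over 14767 genes, the pattern most like that of Krt7 was that of S100a14 (r = 0.98), then Krt19 and Krt18. S100a11 (r = 0.98) and S100a6 (r = 0.97), which encode small calcium-binding proteins, were most like Krt8 and were followed by Krt19. S100a14 and S100a6 (both r = 0.97) and S100a11 (r = 0.96) were most like Krt18. Krt8, Sh3bgrl3 and Msln (mesothelin) were most like Krt19 (r = 0.97, 0.96 and 0.96). Those most like Krt20 were Sema6a (a semaphorin, r = 0.92), Por (cytochrome P450 oxidoreductase, r = 0.92) and Acot12 (an acyl-CoA thioesterase, r = 0.90). The points share libraries and depth, and r is given as a description.

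Within cluster 7, Krt8 was higher in the deepest nuclei than in those of middling depth, except in SCM replicate 1. In cluster 7 nuclei with over 16000 UMIs, Krt8 was 2989, 5148 and 2950 CPM in QCM replicates 1 to 3 (7, 4 and 4 nuclei) and 839, 3029 and 2983 CPM in SCM replicates 1 to 3 (4, 63 and 18 nuclei). In cluster 7 nuclei with over 2000 and up to 4000 UMIs, Krt8 was 666 CPM in QCM replicate 2, 843 in QCM replicate 3, 710 in SCM replicate 2 and 992 in SCM replicate 3. Deep nuclei thus held the higher Krt8 level in each of those 4 samples. The shallowest nuclei also held more Krt8 than those of 2000 to 4000 UMIs, in cluster 7 and outside it, except in cluster 7 of SCM replicate 1 (1054 against 1402 CPM, 3 and 4 nuclei). In cluster 7, nuclei with up to 1000 UMIs held 1717 CPM in QCM replicate 2, 1144 in QCM replicate 3, 1146 in SCM replicate 2 and 1872 in SCM replicate 3 (12, 72, 4 and 8 nuclei). Outside cluster 7 they held 1306 and 1260 CPM in QCM replicates 2 and 3 and 1189, 1483 and 1828 CPM in SCM. QCM replicate 1 had no nucleus that shallow. When the 6% of nuclei with the most UMIs were left out of each sample, cluster 7 fell to 940 CPM of Krt8, 371 of Krt18 and 638 of Krt19, and cluster 1 became the first cluster for these 3. Krt7 stayed highest in cluster 7 (115 CPM), and Krt20 in cluster 8 (89.8 CPM). Whether the deep nuclei are single nuclei was not tested, and no doublet caller was run.

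**Figure D2:**
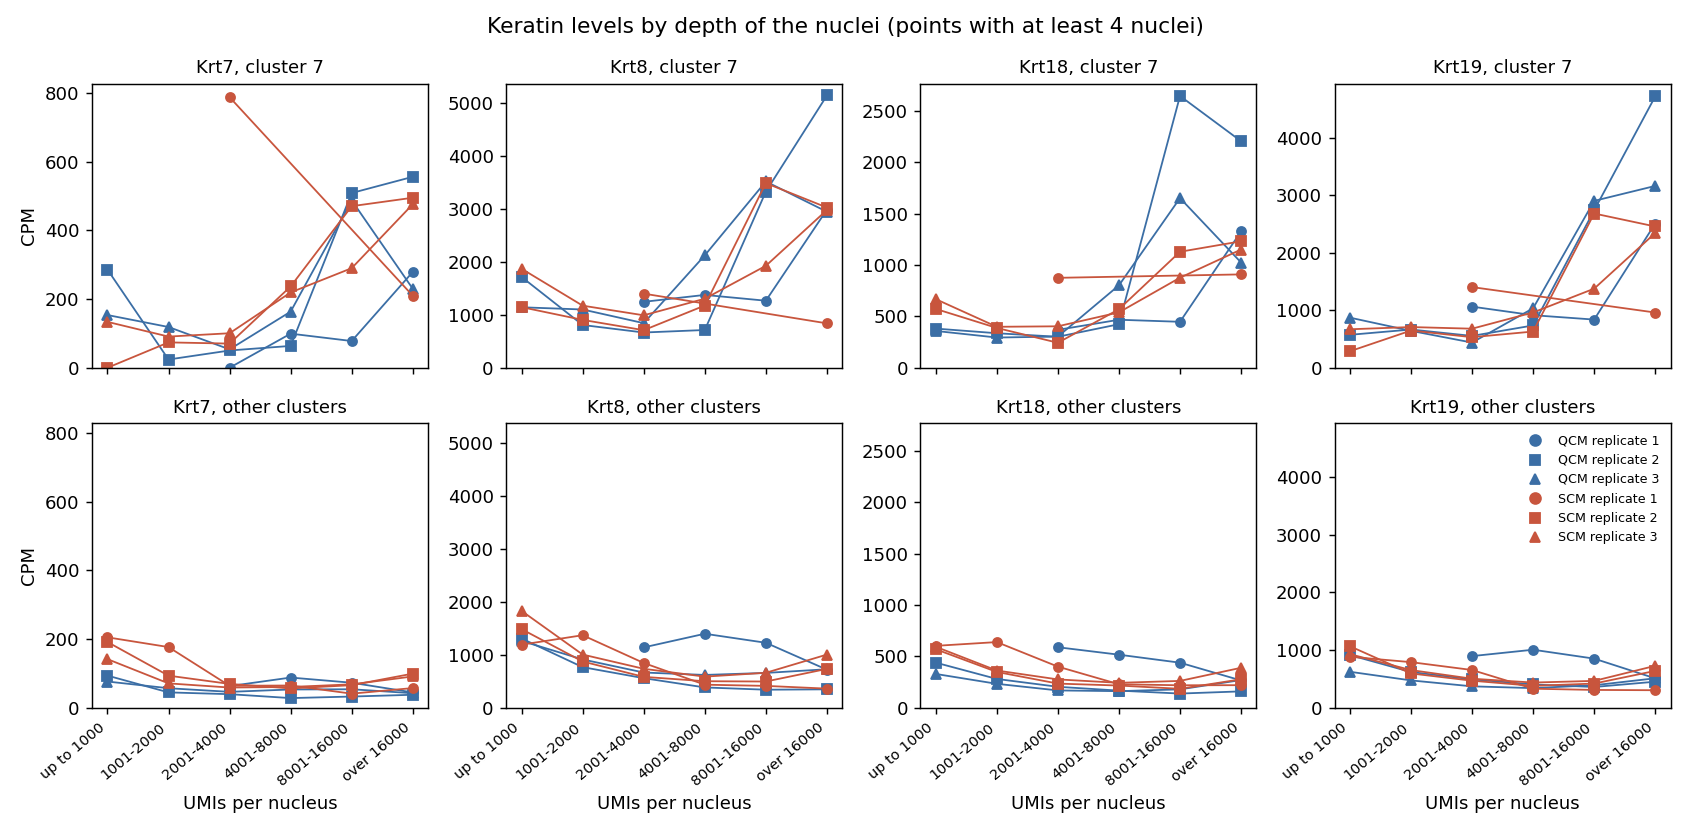
Keratin level (CPM, linear axis) against the UMIs of the nuclei, in cluster 7 (upper row) and in all other clusters (lower row, same scale per gene). Each point is the pooled level of at least 4 nuclei of 1 sample, blue for QCM and red for SCM. In cluster 7, Krt8 stands higher over 16000 UMIs than in the nuclei of 2000 to 4000 UMIs in every sample but SCM replicate 1. Outside it, Krt8 in most samples is highest in the shallowest nuclei.

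To compare how many nuclei held each keratin, nuclei were thinned to 1000 UMIs each, which left out 0 to 1876 nuclei per sample. A Krt8 UMI was then found in 44.4 to 69.2% of nuclei per sample, a Krt19 UMI in 34.8 to 57.1%, a Krt18 UMI in 18.4 to 37.7%, a Krt7 UMI in 3.94 to 11.7% and a Krt20 UMI in 1.23 to 2.90%. The share with a Krt7 UMI overlapped between the media. It was 7.36, 3.94 and 4.90% in QCM replicates 1 to 3 and 11.7, 7.73 and 6.32% in SCM replicates 1 to 3. Krt20 was found in 10.1 ± 4.69% of nuclei of cluster 8 and in 1.86 ± 1.36% of those of cluster 7 (n = 6). Krt7 was found in 12.3 ± 6.82% of nuclei of cluster 7 and in 7.0 ± 3.64% of those of cluster 8. For the other keratins that were highest in cluster 7, the shares there were close to those of other clusters. Krt8 was found in 62.4 ± 8.03% of nuclei in cluster 7 and 60.9 ± 7.81% in cluster 1. Krt18 was found in 31.3 ± 8.75% and in 31.5 ± 10.9% in cluster 12, and Krt19 in 51.0 ± 7.72% and in 49.6 ± 15.6% in cluster 13. Without thinning, the means over samples were 81.4% for Krt8, 71.8% for Krt19, 54.9% for Krt18, 21.8% for Krt7 and 8.08% for Krt20. No cluster lacks epithelial markers, so the share given by free RNA could not be measured in a cell type without keratins.

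Over all nuclei, Krt7 was the member whose samples did not overlap between the media. It stood at 69.7, 40.9 and 56.6 CPM in QCM replicates 1 to 3 and at 107, 136 and 80.4 CPM in SCM replicates 1 to 3. The means were 55.7 ± 14.4 and 108 ± 27.7 CPM (SD, n = 3), a difference of 52.0 CPM with an exact two-sided permutation p of 0.1, which is the smallest that 3 against 3 samples can give. Of 19046 genes tested, 4.99% were likewise higher in every SCM sample, 2.09% lower and 7.08% either. Samples were scaled in edgeR by TMM, a factor applied on top of total UMIs, so its log2 can differ from that of the CPM means. With library size alone, log2 of Krt7 was 0.95. With TMM, log2 SCM over QCM of Krt7 in edgeR was 0.74 ± 0.31 (SE), with an adjusted p of 0.927, so it did not pass the threshold of 0.05. Its unadjusted p was under 0.05, as it was for 1.46% of all genes tested in this direction and for 3.08% in the other. These sums over all nuclei do not by themselves tell more nuclei of a kind from more RNA per nucleus.

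The other members overlapped between the media. Krt8 was 1123, 553 and 824 CPM in QCM and 684, 976 and 898 CPM in SCM. Krt18 was 411, 218 and 217 CPM in QCM and 363, 390 and 338 CPM in SCM, where QCM replicate 1 was the highest of all 6. Krt19 was 797, 506 and 451 CPM in QCM and 475, 775 and 614 CPM in SCM. Krt20 was 34.0, 15.6 and 22.1 CPM in QCM and 10.3, 27.1 and 27.3 CPM in SCM. QCM replicate 1 held the highest value of each of these 4. In edgeR, log2 SCM over QCM was -0.17 ± 0.37 (SE) for Krt8, 0.15 ± 0.35 for Krt18, -0.12 ± 0.35 for Krt19 and -0.33 ± 0.47 for Krt20, with adjusted p of 0.957, 0.965, 0.975 and 0.932. The 95% intervals ran from -0.90 to 0.55 for Krt8, -0.53 to 0.83 for Krt18, -0.81 to 0.58 for Krt19 and -1.24 to 0.58 for Krt20. The exact permutation p was 1 for Krt8, 0.4 for Krt18, 0.8 for Krt19 and 0.7 for Krt20.

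**Figure D3:**
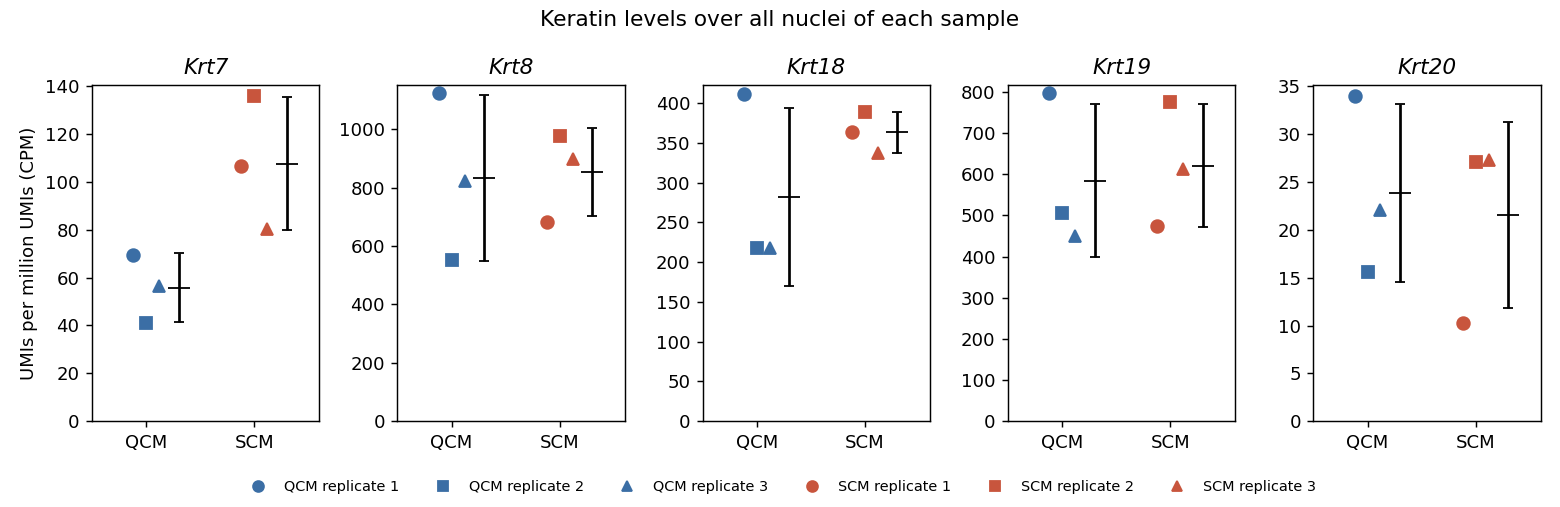
Level of each keratin over all nuclei of a sample (CPM, linear axes from 0, own scale per gene), QCM in blue and SCM in red, with the mean and SD of 3 samples in black. Krt7 is the panel in which the 3 SCM points (80.4 to 136) all lie above the 3 QCM points (40.9 to 69.7).

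No gene of the 19046 passed the adjusted threshold in edgeR, where 279 were higher and 587 lower in SCM at an unadjusted p under 0.05. DESeq2 called 21 genes (0.11%), none of them a member, and voom with limma called 0. The estimate of Krt7 fell when cluster 7, cluster 14 or the deepest nuclei were left out, as given below. It was log2 0.69 with clusters weighted equally and 0.69 with nuclei weighted equally (limma on log2 CPM, without TMM). As reported it was 0.74, and with library size alone 0.95. The part of cluster 7 or of the deepest nuclei in the difference was not tested. Cluster 7 held 2.84 to 3.82% of the UMIs of the QCM samples and 3.77, 16.4 and 7.93% of those of SCM replicates 1 to 3. This share of UMIs overlapped between the media. As a share of nuclei, cluster 7 was higher in every SCM than in every QCM sample, although below its share of UMIs in SCM replicates 2 and 3. The nuclei of cluster 7 were 145 of 3791, 216 of 7930 and 336 of 10144 nuclei in QCM replicates 1 to 3. In SCM replicates 1 to 3 they were 17 of 430, 204 of 5026 and 524 of 10833. Of the 204 in SCM replicate 2, 63 had over 16000 UMIs. It held 7.31 to 12.2% of Krt7 UMIs in QCM and 7.36, 55.0 and 25.0% in SCM. Without cluster 7, Krt7 was 66.9, 37.0 and 53.2 CPM in QCM and 103, 73.1 and 65.5 CPM in SCM, and the groups overlapped (log2 0.41). In SCM replicate 1, 7 nuclei of cluster 14 held 54.0% of the Krt7 UMIs, and without cluster 14 this sample fell to 72.4 CPM, against 72.2 in QCM replicate 1 (log2 0.56). Without the 6% of nuclei with the most UMIs, Krt7 was 75.4, 38.7 and 54.6 CPM in QCM and 68.7, 73.2 and 67.0 CPM in SCM. The means were 56.2 ± 18.4 and 69.6 ± 3.22 CPM, with overlap. In edgeR, which also scales by TMM, log2 SCM over QCM was then 0.01. Without the shared barcodes, log2 was 0.71, and the groups did not overlap. The other members then had log2 -0.20 (Krt8), 0.066 (Krt18), -0.14 (Krt19) and -0.26 (Krt20), and cluster 7 held 236 CPM of Krt7, 1944 of Krt8, 798 of Krt18 and 1509 of Krt19. The fetal markers moved the same way: 8 of 9 were tested, 6 were higher in SCM at an unadjusted p under 0.05, none passed the adjusted threshold, and their summed level was 185 to 261 CPM in QCM and 361 to 842 CPM in SCM. Lists of mature cell types had a median log2 of -1.36 for 9 enterocyte, -1.20 for 6 Paneth, -0.75 for 8 enteroendocrine, -0.44 for 5 tuft and -0.38 for 8 goblet markers tested. At an unadjusted p under 0.05, 3 in each list were lower, except in the tuft list with 0, and none passed the adjusted threshold. QCM replicate 1 held the highest sum of enterocyte markers (5242 CPM, against 1317 and 2674 in the other QCM and 569 to 1972 in the SCM samples) and of Paneth markers (2634, against 630 and 518 and 335 to 582). The part of these lists in the Krt7 difference was not tested.

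**Figure D4:**
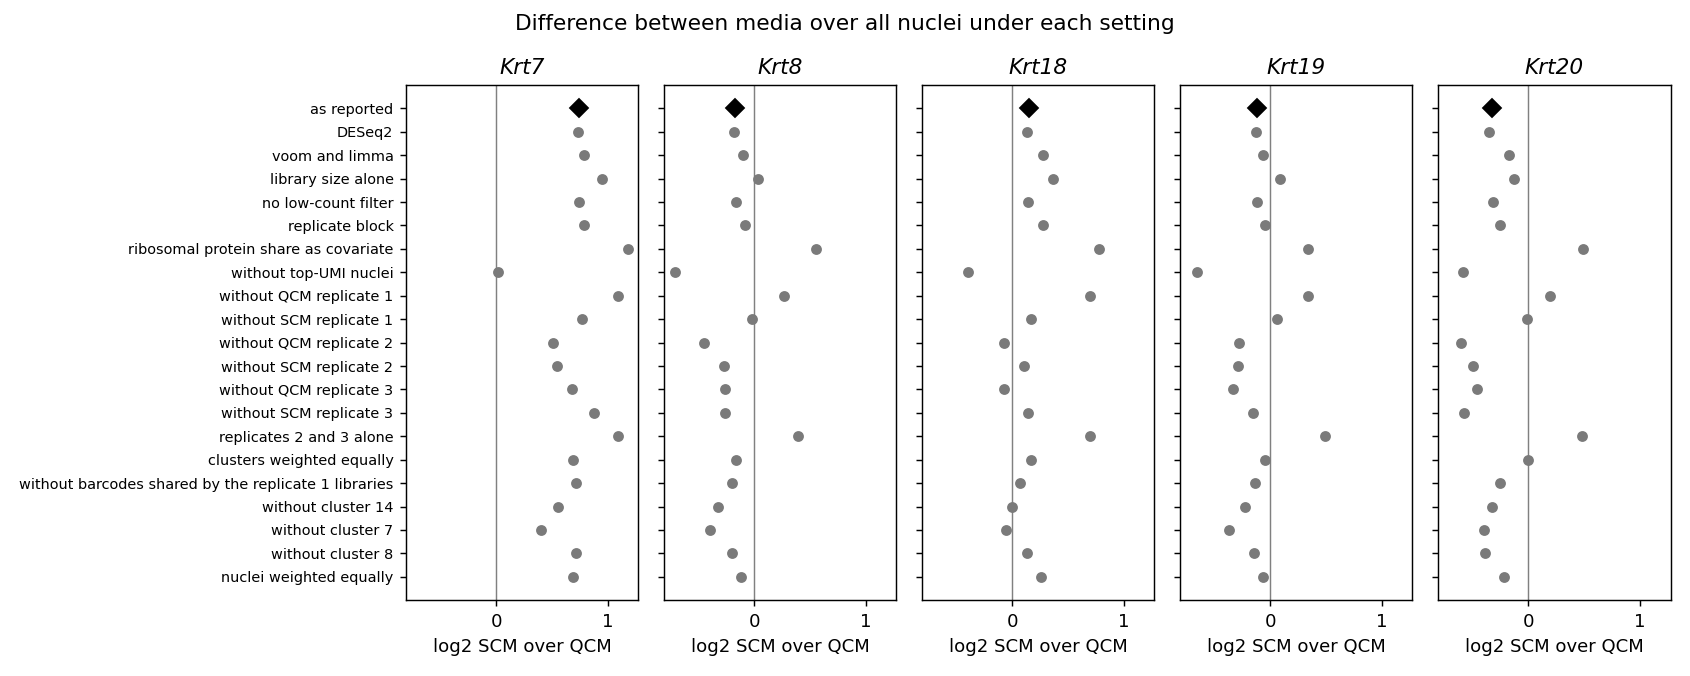
log2 SCM over QCM of each keratin over all nuclei, as reported (black diamond) and under 20 other settings (grey points), with 0 marked. Krt7 stays at or above 0.01, and the other 4 lie on both sides of 0.

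Krt7 was also set against Krt8, the other type II chain, within the same nuclei. A ratio can rise through either gene. Over all nuclei, Krt8 had means of 833 ± 286 CPM in QCM and 853 ± 151 CPM in SCM. Its edgeR estimate was log2 -0.17 ± 0.37 (SE) over all nuclei and below 0 in 11 of 13 clusters. This ratio needs no library scaling, and the pair was chosen after the values were seen. Krt7 UMIs per 100 Krt8 UMIs were 6.20, 7.41 and 6.87 in QCM replicates 1 to 3 and 15.6, 13.9 and 8.95 in SCM replicates 1 to 3, without overlap. The means were 6.82 ± 0.603 and 12.8 ± 3.46 (SD, n = 3). Of 19045 other genes tested, 0.919% were likewise higher per Krt8 UMI in every SCM sample. The 3 SCM values stayed above the 3 QCM values without cluster 7 (7.97 to 15.1 against 6.10 to 7.12), without cluster 14 (8.94 to 14.8 against 6.18 to 7.37), without the deepest 6% of nuclei (7.73 to 13.6 against 6.05 to 6.60) and without the shared barcodes (8.95 to 15.6 against 6.21 to 7.41). Krt7 itself overlapped without cluster 7 and without the deepest nuclei, and the estimate of Krt8 was then lower in SCM, with log2 -0.40 and -0.71. In the latter case its mean was 890 ± 333 CPM in QCM and 665 ± 185 CPM in SCM, with overlap. Per 100 Krt19 UMIs, Krt7 was 8.74, 8.08 and 12.5 in QCM and 22.5, 17.5 and 13.1 in SCM, again without overlap (0.861% of genes). Per 100 Krt18 UMIs it was 17.0, 18.8 and 26.0 in QCM and 29.4, 34.9 and 23.8 in SCM, with overlap, where 0.362% of genes were higher without it.

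By cluster, the mean ratio of Krt7 to Krt8 was higher in SCM in 13 of the 13 clusters with at least 2 samples per medium, and every SCM sample lay above every QCM sample in 10 of them. The share of genes that did so in a cluster ran from 0.0799 to 6.8%, with a median of 1.21%, and was 1.78% over all of these clusters. In cluster 7 the ratio was 7.96, 10.5 and 9.11 per 100 in QCM and 27.6, 16 and 14.2 in SCM. In cluster 0, the largest, it was 5.83, 6.98 and 6.21 in QCM and 11.8, 11.3 and 7.41 in SCM. The value of SCM replicate 1 there rests on 100 UMIs of the 5 keratins in 19 nuclei. In cluster 8 its value was 6.90, from 123 such UMIs in 11 nuclei, close to 6.54 in QCM replicate 3. Clusters 6, 11 and 12 overlapped. The clusters of a library share its free RNA and its preparation, so they do not count as separate tests. Against Krt18 and Krt19 in place of Krt8, the mean was higher in SCM in 12 and 13 of the 13 clusters, but the samples did not overlap in only 3 and 4 of them (1.71 and 3.16% of genes over these clusters), so the 10 clusters depend on Krt8 as the denominator.

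**Figure D5:**
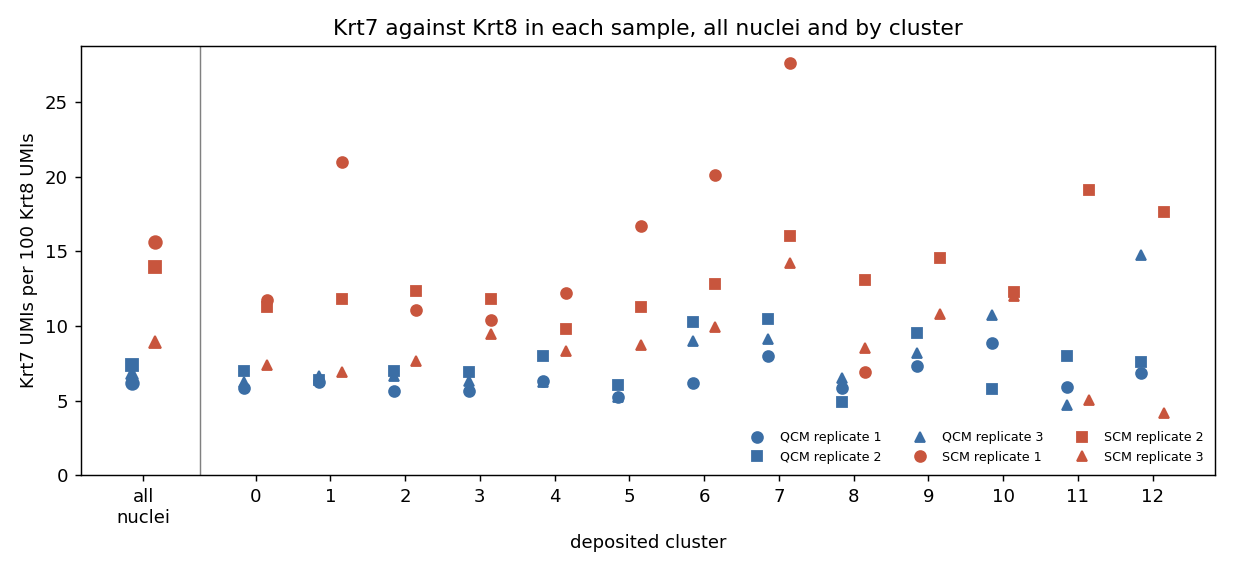
Krt7 UMIs per 100 Krt8 UMIs (linear axis from 0) over all nuclei and in the 13 clusters with at least 2 samples per medium, 1 point per sample with at least 10 nuclei, QCM in blue and SCM in red. The SCM points lie above all QCM points over all nuclei and in 10 of the 13 clusters.

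Of the other proportions within the group, that of Krt18 also differed without overlap. Krt18 made up 16.9, 16.4 and 13.8% of the UMIs of the 5 keratins in QCM replicates 1 to 3 and 22.2, 16.9 and 17.3% in SCM replicates 1 to 3, where QCM replicate 1 and SCM replicate 2 nearly met. Krt7 made up 2.86 to 3.60% in QCM and 4.11 to 6.52% in SCM, and 0.788% of genes were likewise higher per keratin UMI in every SCM sample. The other 3 overlapped. Krt8 made up 41.4 to 52.4% of the UMIs of the 5 keratins in QCM and 41.7 to 45.9% in SCM, and Krt19 28.7 to 38% and 29.0 to 33.6%. Krt20 made up 1.17 to 1.41% in QCM and 0.629 to 1.39% in SCM. The 5 keratins together took 0.133 to 0.244% of all UMIs in QCM and 0.164 to 0.230% in SCM, and type II over type I UMIs was 0.802 to 1.28 in QCM and 0.932 to 1.00 in SCM.

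Within clusters, 13 could be fitted, 9 with all 6 samples and 4 with 5, which gave 62 tests of a member in a cluster. In edgeR none passed an adjusted p of 0.05, nor did any of the 130109 gene tests in these clusters (0%). The unadjusted p was under 0.05 for 2 of the 62, both Krt7, and for 5.76% of all gene tests. DESeq2 and voom with limma also called 0 members. In cluster 7, log2 SCM over QCM of Krt7 was 0.91 ± 0.29 (SE; edgeR adjusted p = 0.339, with 3.4% of genes higher at an unadjusted p under 0.05) and 0.50 without SCM replicate 2. The fits within clusters were not repeated without the deepest nuclei. In cluster 8, Krt7 was 48.4, 27.0 and 46.3 CPM in QCM and 33.1, 213 and 69.4 CPM in SCM, with log2 1.48 ± 0.51 (edgeR adjusted p = 1.00, 0.909% of genes higher at that level). The value in cluster 8 rested on SCM replicate 2, without which it was 0.48. It passed the adjusted threshold when genes were not filtered on low counts (log2 1.41, adjusted p = 0.00502), a fit in which 0.313% of genes in the cluster were called.

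The estimate of Krt7 was higher in SCM in 12 of 13 clusters, with a median log2 of 0.29, and cluster 12 was the exception (-0.34). The estimate of Krt8 was higher in SCM in 2 of 13 (median -0.45), that of Krt18 in 5 of 13 (median -0.10), that of Krt19 in 4 of 13 (median -0.39) and that of Krt20 in 3 of 10 (median -0.22). Krt7 was higher in every SCM than in every QCM sample in clusters 5, 6, 7 and 9, where 5.12, 5.28, 10.2 and 10.7% of genes were (7.54% over all fitted clusters). Krt18 was lower in SCM without overlap in cluster 11, as were 6.41% of genes (4.65% over all fitted clusters). In clusters 7 and 1, the highest for Krt8, its log2 was -0.03 ± 0.47 and -0.55 ± 0.47 (edgeR adjusted p = 0.995 and 0.731). That of Krt18 was 0.16 ± 0.33 and -0.16 ± 0.41 (adjusted p = 0.893 and 0.923), and that of Krt19 0.04 ± 0.42 and -0.50 ± 0.42 (adjusted p = 0.993 and 0.731). Krt20 was 117, 83.4 and 69.5 CPM in QCM and 41.4, 282 and 93.2 CPM in SCM in cluster 8, with log2 0.75 ± 0.49 (adjusted p = 1.00), and log2 0.31 ± 0.33 in cluster 9 (adjusted p = 0.966).

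No gene of the keratin filament lists passed the adjusted threshold between the media in edgeR, and none of all 19046 genes tested did (0%). Of 37 other keratins, 6 were abundant enough to test, with a median log2 SCM over QCM of -0.07, where the median of all genes tested was -0.01. Krt23, an epithelial type I keratin, was 8.05 ± 3.36 CPM in QCM and 18.6 ± 9.29 CPM in SCM (edgeR log2 0.98 ± 0.46, adjusted p = 0.927). Krt10, a type I keratin of the suprabasal epidermis, was 12.0 ± 3.70 and 10.5 ± 2.19 CPM. Krt222 was 1.33 and 1.22 CPM, and Krt15 0.720 and 0.783 CPM. Krt80, named after its value was seen, was the 1 member of this list with an unadjusted p under 0.05 (edgeR log2 1.62, 0.310 CPM in QCM against 1.04 in SCM, adjusted p = 0.927). Of all genes tested, 1.46% were higher in SCM at that level and 3.08% lower.

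The desmosomal proteins and plakins tie keratin filaments to cell junctions and to other filaments. Of 14 listed genes, 13 were tested, 9 with a higher estimate in SCM, and the median log2 was 0.15. Macf1, a plakin, was 236 ± 79.4 CPM in QCM and 344 ± 67.9 in SCM (log2 0.41 ± 0.23), and the desmosomal cadherin gene Dsg2 216 ± 21.9 and 300 ± 65.7 (log2 0.29 ± 0.22). Dsp (desmoplakin) was 177 ± 29.5 and 228 ± 56.6 CPM, and the cadherin gene Dsc2 124 ± 22.7 and 153 ± 9.51 CPM. Ppl (periplakin), named after its value was seen, was the 1 gene here with an unadjusted p under 0.05 (edgeR adjusted p = 0.927, log2 0.63 ± 0.22). At that level 1.46% of all genes tested were higher in SCM and 3.08% lower. Ppl was also higher in every SCM sample, as were 4.99% of genes. Of 4 hemidesmosome genes, all tested, Itga6 was 255 ± 96.1 CPM in QCM and 318 ± 56.8 in SCM, and its partner Itgb4 50.3 ± 6.00 and 81.8 ± 34.1, higher in every SCM sample (4.99% of genes). Cd151, a tetraspanin bound to that integrin, was 18.5 ± 6.91 and 13 ± 0.613 CPM, lower in every SCM sample (2.09% of genes), and the hemidesmosomal collagen gene Col17a1 2.0 and 1.4 CPM. The list's median log2 was -0.18.

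Of 16 other intermediate filament genes, 8 were tested, with a median log2 of -0.09. Those named by the highest CPM were 3 of the nuclear lamina, with Lmnb1 at 114 ± 20.7 and 129 ± 7.25 CPM, Lmna at 62.6 ± 9.53 and 80.4 ± 15.4 (log2 0.18, without overlap, as for 4.99% of genes) and Lmnb2 at 28.4 ± 0.992 and 29.3 ± 3.13, and the lens filament gene Bfsp1 at 8.21 and 8.71. Vim, the mesenchymal filament gene, was at 1.95 ± 1.02 and 1.28 ± 1.16 CPM. All 6 genes of keratin-binding proteins were tested, with a median log2 of -0.21. Of these, the 14-3-3 genes Ywhaz (204 ± 13.5 and 214 ± 16.7 CPM), Ywhab (115 ± 21.8 and 97.0 ± 6.06) and Sfn (44.7 ± 15.4 and 41.5 ± 6.00) and the adaptor gene Tradd (20.1 ± 3.40 and 17.4 ± 2.00) overlapped between the media.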

How the data were processed

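Nuclei of frozen organoids were profiled in droplets, with tags at the 3′ end of each RNA. The authors aligned reads to mm10 (Ensembl 98) with Cell Ranger (2.1.1 in the submitters' processing notes), discarded nuclei more than 3 deviations below their sample in reads or genes, or above it in organelle reads, and clustered the rest. They deposited UMI counts per gene and nucleus (not normalized) and the cluster of each nucleus. Counts were summed per sample, and per sample and cluster with at least 10 nuclei, and given as CPM of those sums. Counts at the 3′ end were not divided by length. Ratios and proportions of keratin UMIs were compared between samples and clusters and are not read as the level of 1 gene over another. CPM across genes served only to choose which list members to name. The sums were tested in edgeR 4.0.16 (quasi-likelihood, TMM, filterByExpr, limma 3.58.1, R 4.3.3, Benjamini-Hochberg over all genes of a fit), after a check on simulated data. DESeq2 1.42.0, voom with limma and the other settings were alternatives. Clusters needed 2 samples of each medium to be fitted. Depth ranged from 4071926 to 41035733 UMIs per sample. Binomial intervals and counts of 0 cover counting error only.

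The members, lists and tests were chosen with earlier results of these data known. The named genes were the 5 members, for each the 3 genes most alike across clusters (at least 5 CPM in 1 cluster with 50 nuclei or more), and of each list those past the threshold or else the 4 with the highest mean CPM. Krt80, Ppl, Vim and the markers of cell types were named outside this rule. Within clusters, the 2 highest fitted clusters and any called one were named for each member. Medium is the only factor, and the labels give no batch.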

Additional observations from a re-analysis of the deposited data

How the results depend on the processing

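No member passed the adjusted threshold over all nuclei under any of the 20 alternatives, which left 0 called in each. Within clusters the count of 0 moved to 1 without a low-count filter (Krt7 in cluster 8, log2 1.41), and was 0 under every other setting. No list gene was called in edgeR, DESeq2, voom with limma, library size alone, no filter, the replicate block or with a sample left out. Of all genes, DESeq2 called 0.11%, and edgeR, voom with limma, no filter and the replicate block called 0%. Krt7 kept its direction over all nuclei in all 20, between 0.01 and 1.18. The other 4 did not. Scaled by library size, log2 was 0.033 for Krt8 and 0.086 for Krt19. Adjusted for the share of ribosomal protein UMIs it was 0.55 for Krt8, 0.34 for Krt19 and 0.49 for Krt20, and with replicates 2 and 3 alone 0.39, 0.49 and 0.48. Krt18 was -0.39 without the deepest nuclei, -0.0051 without cluster 14 and -0.058 without cluster 7, and Krt20 was 0.00135 with clusters weighted equally. The cause was not tested.

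Leaving out 1 sample gave log2 ranges of 0.51 to 1.09 for Krt7, -0.45 to 0.26 for Krt8, -0.075 to 0.70 for Krt18, -0.33 to 0.34 for Krt19 and -0.61 to 0.19 for Krt20. The highest of each came without QCM replicate 1. The differences in mean CPM then ran from 37.9 to 65.6, -121 to 164, 49.0 to 146, -40.7 to 142 and -6.45 to 3.32. Within clusters 7 and 1, the ranges were 0.50 to 1.07 and -0.029 to 0.62 for Krt7, -0.52 to 0.32 and -0.86 to -0.15 for Krt8, -0.10 to 0.29 and -0.45 to 0.37 for Krt18, and -0.42 to 0.32 and -0.72 to -0.013 for Krt19. Krt20 gave -0.26 to 1.06 in cluster 8 and -0.018 to 0.63 in cluster 9, and Krt7 0.48 to 1.78 in cluster 8. In cluster 7, Krt8 turned to 0.10 with library size alone, 0.024 without a filter, 0.44 with replicates 2 and 3 alone and 0.32 with at least 20 nuclei, and Krt19 to -0.29 with voom. In cluster 1, Krt18 turned to 0.10 with voom, 0.18 scaled by library size and 0.47 in replicates 2 and 3, where Krt19 turned to 0.072.

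Whether replicate numbers pair the samples could not be decided, because deviations from the mean of 3 samples are not independent of each other. Deviations from the group means correlated at 0.36 for number 1 and 0.46 for number 2, in both cases the highest value of either sample. For number 3 the value was -0.09, and SCM replicate 3 correlated best with QCM replicate 2 (0.16). The replicate block called 0 genes over all nuclei and 0 members in clusters, gave 0.79 for Krt7 over all nuclei, and turned Krt19 in cluster 7 to -0.051 and Krt18 in cluster 1 to 0.0033.

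Levels in cluster 7 without the deepest nuclei fell to 940 CPM for Krt8, 371 for Krt18 and 638 for Krt19, and with 1 sample left out ran from 1519 to 1938, 708 to 826 and 1207 to 1504, with 185 to 248 for Krt7 and 80.9 to 129 for Krt20 in cluster 8. Shares of nuclei with a UMI rose for all 5 with less thinning.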
